A study of Sus scrofa with 48 samples.

Results

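Complex I, the NADH:ubiquinone oxidoreductase, is the entry point of most electrons into the mitochondrial respiratory chain, and the nuclear genes for its subunits carry names that start with NDUF. Their mRNA levels were described here in longissimus muscle of pigs from a line with low and a line with high residual feed intake (RFI), the feed eaten beyond what growth and maintenance predict. A probe was taken when its gene name on the array, or the symbol in brackets in its description, started with NDUF. This found 70 of the 60305 distinct probes, for 38 genes among the 15155 gene symbols on the array. Of these 70, 68 were well above background on 12 or more of the arrays of 48 pigs and were tested, for 37 genes, among 42125 tested probes in all. The probe of NDUFAF1 and 1 of 2 probes of NDUFB5 were each well above background on 1 array and were left out. Of the 68 tested probes, 65 were well above background on all 48 arrays.

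The name does not decide membership of the complex. The tested probes covered 33 subunits of complex I with 56 probes, of which 6 were core subunits (9 probes), 9 were accessory subunits of the matrix arm (14 probes) and 18 were accessory subunits of the membrane arm (33 probes). A further 2 probes measured the assembly factors NDUFAF3 and NDUFAF4. NDUFA4, with 7 probes, is now placed in cytochrome c oxidase, and NDUFA4L2, with 3 probes, is its paralog. No probe of NDUFS7, another core subunit, was found by name.

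The 48 pigs were purebred Large White barrows, 12 for each line and diet, each measured on an array of its own, and all were fed ad libitum. Low RFI pigs (RFIneg) and high RFI pigs (RFIpl) received either a diet high in fat and fiber (HF) or a diet low in both (LF), which gives the groups HF_RFIneg, HF_RFIpl, LF_RFIneg and LF_RFIpl. The kinship between pigs of a line, the age of the pigs and their individual weight were not analysed here, so that each line stands for 24 pigs of 1 selected population. A signal is given as the log2 of the scanner's background-subtracted intensity minus the mean of the tested probes on the same array, so that 0 is the average tested probe. A line difference is high RFI minus low RFI on this log2 scale, averaged over both diets, and was called at an adjusted p under 0.05 (limma, Benjamini-Hochberg over all 42125 tested probes). The median signal per array was between 52.8 and 79.3 in low RFI pigs and between 55.6 and 107.9 in high RFI pigs, no spot was saturated, and the number of arrays limits the precision. Slides were balanced, with 2 arrays of every group on each of 6 slides. On the first 2 principal components, 1 array lay farthest from the centre, replicate 10 of HF_RFIpl, with a score of -79.3 on PC2, and counts that change by more than 1.5 times without it are given without it too. Markers of skeletal muscle (ACTA1, CKM, MB and DES) were tested with 33 probes, and the log2 of their summed signal lay between 14.7 and 15.4 in every pig.

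Complex I has the form of an L. The arm in the matrix takes electrons from NADH by way of a flavin and passes them along iron-sulfur clusters to ubiquinone, and the arm in the inner membrane pumps protons. Core subunits carry out these steps, and accessory subunits surround and stabilise them. The core of the membrane arm is encoded by the mitochondrial genome, while all NDUF genes are nuclear. In muscle, oxidative fibers hold more mitochondria and therefore more of the complex than glycolytic fibers.

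Each probe is a DNA sequence of 60 bases, and differences between the lines are small enough that the exact stretch measured matters. For 4 subunits with a called difference, the whole probe is shown in lower case, 5′ to 3′ as on the array, since these are the stretches by which the main results were measured.
NDUFV2, probe O10219: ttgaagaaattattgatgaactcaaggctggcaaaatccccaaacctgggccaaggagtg
NDUFS8, probe O6442: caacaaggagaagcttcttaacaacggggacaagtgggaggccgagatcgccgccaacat
NDUFV3, probe O12406: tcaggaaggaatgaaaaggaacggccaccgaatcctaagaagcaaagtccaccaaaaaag
NDUFA12, probe O10344: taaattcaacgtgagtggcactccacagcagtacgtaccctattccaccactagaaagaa
The NDUFV2 sequence is on the array a second time, letter for letter, as a probe whose name is spelt NUDFV2 and which the name rule therefore did not take. For NDUFB11, 2 probes aligned over their whole length and differed at 2 bases, T20C and C55A, with positions counted from 1 at the 5′ end and the base of O14068 given first. Bases 1 to 30 of both are shown because the probes were called separately, with the differing base in capitals.
NDUFB11, probe O14068: ctgtctgccattctgccctTctctcagagc
NDUFB11, probe A_72_P433864: ctgtctgccattctgccctCctctcagagc
For NDUFB9, 2 probes shared a run of 50 bases. Their last 30 bases are shown because the line differences of these overlapping probes had the opposite sign to those of the remaining NDUFB9 probes, and capitals mark the bases that lie outside the shared run.
NDUFB9, probe A_72_P473353: gcttgccctaataaagtaacTCAATATGGT
NDUFB9, probe A_72_P680773: aggacatacgcttgccctaataaagtaacC

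In the comparison of the lines, 10 NDUF probes were lower and 1 was higher in high RFI pigs. The 11 called probes are 16.2% of the 68, next to 16.4% of all tested probes, so that the share of NDUF probes called was close to the background. Probes called lower were 14.7% of the NDUF probes and 9.85% of all tested probes, and probes called higher were 1.47% against 6.57%. The probes called lower belonged to NDUFV2, NDUFS8, NDUFV3, NDUFA12, NDUFA2, NDUFB11 (2 probes), NDUFB1, NDUFB9 and NDUFAF3. Their signals were 7.49% to 14.4% lower in high RFI pigs. The probe called higher was a second probe of NDUFB9. The differences were small, as only 1 of the 68 probes was beyond 0.25 in either direction, against 14.3% of all tested probes.

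Direction was more uniform than size. Of the 68 probes, 55 had a difference below 0, with a median of -0.072, while 58.2% of all tested probes were below 0, with a median of -0.029. In bulk muscle, fewer cells or fibers of a type and less RNA per cell cannot be told apart, and these values were relative to the mean of each array. The scaling of the arrays entered these counts. With quantile normalization, which gives all arrays the same distribution of signals, the median NDUF difference was -0.015, 39 of 68 probes (57.4%) were below 0, next to 57.1% of all tested probes, and 5 probes were called lower and 2 higher. The share called lower was then 7.35% of NDUF probes and 8.25% of all tested probes. With another background correction (normexp), 5 were lower and 1 higher, with a median of -0.035, and 7.09% of all tested probes were lower, while 72.1% of NDUF probes and 58.5% of all tested probes were below 0. The median of all tested probes was -0.023 and -0.019 in these 2 settings. Called lower in both were NDUFV3, NDUFA12, NDUFA2 and the NDUFB11 probe O14068. Within slides, the median NDUF difference was below 0 on each of the 6 slides, from -0.15 to -0.018, as was the median of all tested probes, from -0.044 to -0.014. The NDUF median was the lower of the 2 on 4 slides and the higher on slides 4 and 5, where it was -0.018 and -0.032 against -0.026 and -0.044. It was -0.096 on the first and -0.031 on the second scan day, against -0.028 and -0.029 for all tested probes.

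**Figure D1:**
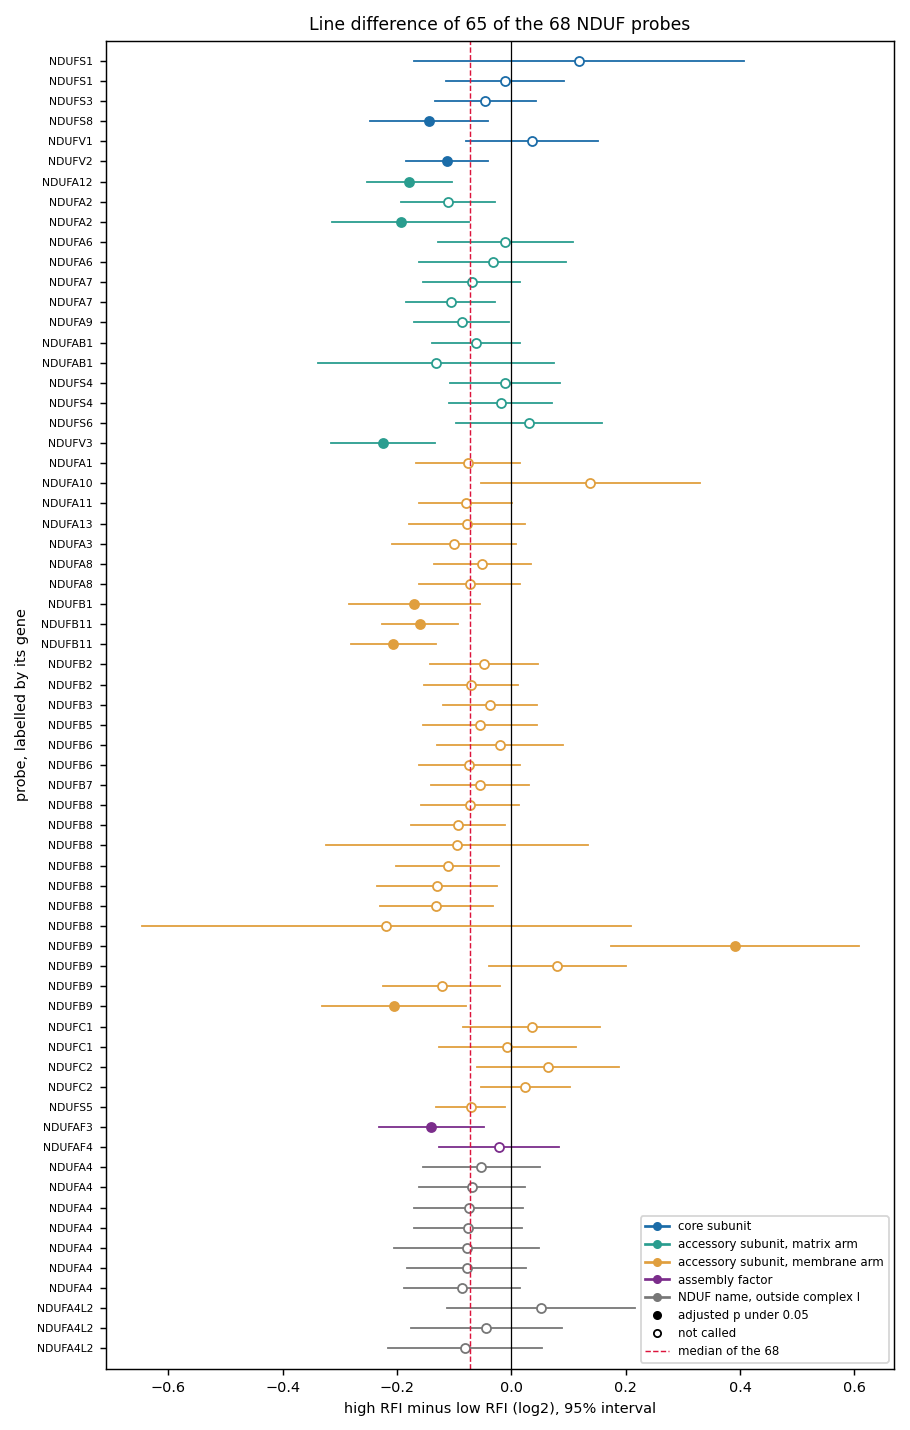
Line difference (high RFI minus low RFI, log2, x axis) of 65 of the 68 tested NDUF probes with 95% intervals, grouped by role of the gene and labelled by gene; filled points passed an adjusted p under 0.05. 10 filled points lie left of 0 and 1, of NDUFB9, lies right of it, and the dashed line marks the median of all 68, -0.072.

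The core subunits did not share a direction. Of their 9 probes, 2 (22.2%) were lower in high RFI pigs, those of NDUFV2 and NDUFS8, against 9.85% of all tested probes. None was higher, while 5 had a difference above 0. NDUFV2 carries an iron-sulfur cluster next to the flavin site of the matrix arm. Its signal was 6.17 to 6.47 in HF_RFIneg (median 6.36), 6.01 to 6.45 in HF_RFIpl (median 6.24), 6.2 to 6.4 in LF_RFIneg (median 6.33) and 6.02 to 6.41 in LF_RFIpl (median 6.2). The groups overlapped widely, and 18 of the 24 high RFI pigs lay below the mean of the low RFI line. The difference was -0.11 (limma, SE 0.036 and adjusted p = 0.024). The identical sequence under the name NUDFV2 had a difference of -0.12 (limma adjusted p = 0.0149). A further 4 probes that RefSeq places in NDUFV2 only through their accession had differences between -0.11 and -0.097, and 3 of these 4 were called. Even so, the NDUFV2 probe O10219 was not called with quantile normalization, normexp or without the filter on dim probes (limma adjusted p = 0.229, 0.118 and 0.155).

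NDUFS8 holds iron-sulfur clusters near the site where ubiquinone is reduced. Its signal was 6.63 to 7.25 in HF_RFIneg (median 6.94), 6.61 to 7.14 in HF_RFIpl (median 6.88), 6.75 to 7.1 in LF_RFIneg (median 6.91) and 6.41 to 7.11 in LF_RFIpl (median 6.69). The lowest signals were those of high RFI pigs on the LF diet, and the ranges overlapped on both diets. The difference was -0.14 (limma, SE 0.051 and adjusted p = 0.0477), with 17 of the 24 high RFI pigs below the low RFI mean. This call was the weakest of the 11. Without the array that stood apart, the adjusted p from limma was 0.0671, and the call was also lost in 4 of the other settings.

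None of the other core subunits was called. NDUFV1, which binds NADH and the flavin, had a difference of 0.036 (limma, SE 0.058 and adjusted p = 0.71), 95% interval -0.08 to 0.15. NDUFS3, in the part of the matrix arm near the membrane, had a difference of -0.046, 95% interval -0.13 to 0.043, and the sign changed to 0.0086 with quantile normalization. For NDUFS1, the largest subunit, probe A_72_P089311 had a difference of -0.011, 95% interval -0.11 to 0.093. The second NDUFS1 probe, O11552, whose strand is in doubt as given below for NDUFA2, was well above background on 23 of 48 arrays, and its difference of 0.12 had an interval of -0.17 to 0.41. Both NDUFS1 signs depended on the setting, as normexp gave 0.0087 and -0.018 and the filter for all 48 arrays gave 0.0016 for A_72_P089311.

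Among the accessory subunits of the matrix arm, 3 of 14 probes (21.4%) were lower in high RFI pigs and none was higher. Of all tested probes, 9.85% were lower and 6.57% higher. Below 0 were 13 of the 14, against 58.2% of all tested probes. With quantile normalization 9 of the 14 were below 0, against 57.1%, and with normexp 10, against 58.5%. Of the 3 called, the NDUFA2 probe is of doubtful strand, as given below. NDUFV3, a small subunit bound to the NADH-oxidising module, had the largest difference among the probes called lower. Its signal was 4.78 to 5.4 in HF_RFIneg (median 5.11), 4.5 to 5.16 in HF_RFIpl (median 4.96), 4.95 to 5.32 in LF_RFIneg (median 5.18) and 4.79 to 5.18 in LF_RFIpl (median 4.9). The ranges overlapped on both diets. Over both, 22 of the 24 high RFI pigs lay below the low RFI mean. The mean was 5.13 ± 0.15 (SD, n = 24) in low RFI and 4.91 ± 0.15 (SD, n = 24) in high RFI pigs. The difference was -0.22 (limma, SE 0.045 and adjusted p = 0.000561), a signal 14.4% lower, and it was below 0 on all 6 slides, from -0.38 to -0.11.

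NDUFA12 is an accessory subunit that joins the matrix arm late in its assembly. Its signal was 6.02 to 6.4 in HF_RFIneg (median 6.21), 5.73 to 6.16 in HF_RFIpl (median 6.08), 6.02 to 6.37 in LF_RFIneg (median 6.19) and 5.86 to 6.3 in LF_RFIpl (median 6.01). Of the high RFI pigs, 22 of the 24 lay below the low RFI mean and 11 lay below the lowest low RFI pig. The difference was -0.18 (limma, SE 0.037 and adjusted p = 0.000735), and it lay between -0.23 and -0.11 on the 6 slides. The call of NDUFA12 held in all 12 other settings run for single probes, with differences from -0.18 to -0.12, as did the calls of NDUFV3, of the NDUFB11 probe O14068 and of the NDUFB9 probe A_72_P473353.

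NDUFA2, a small subunit with a thioredoxin-like fold, was measured by 2 probes. Probe O10134 was -2.22 to -1.04 in RFIneg (median -1.6) and -2.04 to -1.34 in RFIpl (median -1.75), and its difference was -0.19 (limma, SE 0.059 and adjusted p = 0.0204). On the HF diet the difference of this probe was -0.33, and on the LF diet -0.054. The second probe, A_72_P043076, had a difference of -0.11 (limma, SE 0.041 and adjusted p = 0.0559), just outside the threshold. The 2 probes deviated together from their group means over the 48 pigs, with r = 0.55. Read by eye, O10134 seems to be the reverse complement of the coding sequence, as do O14283 of NDUFB1, O7527 of NDUFA10 and O11552 of NDUFS1, so that these 4 probes may not measure the mRNA they are named for. This could not be checked with the tables used here. Without these 4 probes, 8 of 64 NDUF probes were lower (12.5%) and 1 was higher, with a median of -0.072. Of the matrix arm probes not called, the NDUFA7 probe A_72_P276339 came closest, with -0.11 (limma, SE 0.039 and adjusted p = 0.0519). An unnamed probe that shares 52 of its bases had a difference of -0.11 (limma adjusted p = 0.0459) and was called. NDUFA6, NDUFA9, NDUFAB1, NDUFS4 and NDUFS6 had differences from -0.13 to 0.031, none of them called.

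In the membrane arm, 4 of 33 accessory subunit probes (12.1%) were lower and 1 (3.03%) was higher in high RFI pigs, and 27 were below 0. The shares over all tested probes were 9.85%, 6.57% and 58.2%. With quantile normalization 22 of the 33 were below 0, and with normexp 25. NDUFB11, a subunit that spans the membrane once, was called by both of its probes. Probe O14068 was 7.3 to 7.67 in HF_RFIneg (median 7.6), 6.99 to 7.6 in HF_RFIpl (median 7.33), 7.45 to 7.62 in LF_RFIneg (median 7.51) and 7.15 to 7.5 in LF_RFIpl (median 7.31). Of the 24 low RFI pigs, 8 lay above the highest high RFI pig, and 9 high RFI pigs lay below the lowest low RFI pig. The difference was -0.21 (limma, SE 0.037 and adjusted p = 0.000131), a signal 13.3% lower, with the smallest adjusted p among NDUF probes. Probe A_72_P433864 was 7.34 to 7.75 in RFIneg (median 7.55) and 7.18 to 7.57 in RFIpl (median 7.41), with a difference of -0.16 (limma, SE 0.033 and adjusted p = 0.000815). The deviations of the 2 probes from their group means correlated with r = 0.73 over the 48 pigs. Both probes were below 0 on all 6 slides. With quantile normalization the difference of A_72_P433864 was -0.068 and was not called (limma adjusted p = 0.0933), while O14068 was -0.11 and was called.

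NDUFB1, another small subunit of this arm, had 1 probe, O14283, whose strand is in doubt as given for NDUFA2. Its signal was -1.23 to -0.42 in RFIneg (median -0.78) and -1.29 to -0.68 in RFIpl (median -1.0), and the difference was -0.17 (limma, SE 0.057 and adjusted p = 0.0342). It was below 0 on 5 of 6 slides, and it was -0.046 on the first and -0.29 on the second scan day. The call was lost with normexp, without the filter on dim probes and in the deposited log2 table, with adjusted p of 0.066, 0.119 and 0.0927 from limma.

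NDUFB8 had the most probes in this arm, 7, and none was called. All 7 had differences below 0, from -0.22 to -0.072. The probe with the difference of -0.22 was well above background on 19 arrays only and had an interval of -0.65 to 0.21. Probes A_72_P014556, A_72_P647361 and O11566 shared runs of 53 to 56 bases and are not separate measurements, and their differences were -0.11, -0.093 and -0.13 (limma adjusted p = 0.0796, 0.11 and 0.0602). Probes A_72_P533639 and A_72_P242552 did not follow the other NDUFB8 probes from pig to pig, with r from -0.37 to 0.0013. The rest of this arm, NDUFA1, NDUFA3, NDUFA8, NDUFA10, NDUFA11, NDUFA13, NDUFB2, NDUFB3, NDUFB5, NDUFB6, NDUFB7, NDUFC1, NDUFC2 and NDUFS5, gave no call, with differences from -0.10 to 0.14. NDUFC1 and NDUFC2, next to each other in the complex, were the subunits here whose gene medians were above 0, apart from NDUFA10.

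**Figure D2:**
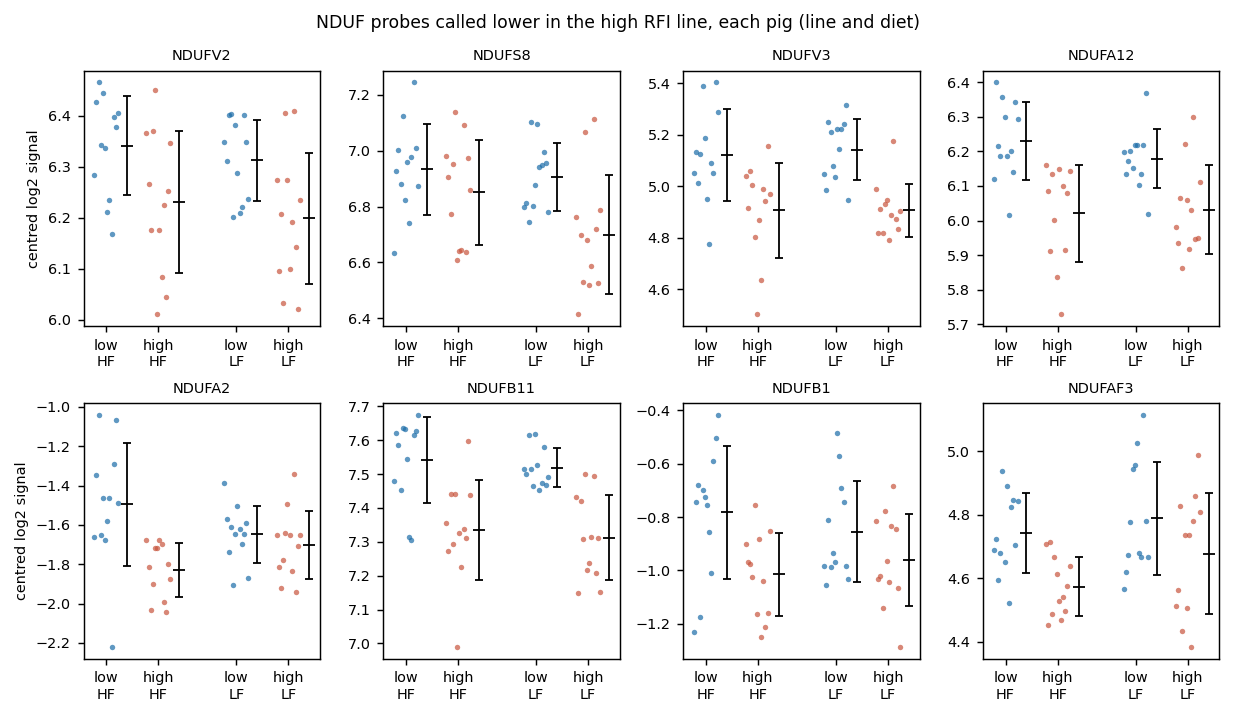
Centred log2 signal (y axis, 0 is the mean tested probe of an array) of each pig in 1 probe for each of 8 genes called lower in high RFI pigs, by line (low and high RFI) and diet (HF and LF), 12 pigs per group, with the group mean and SD in black. High RFI pigs lie lower on average on both diets in all 8 panels, and the groups overlap in each.

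NDUFB9, an accessory subunit at the far end of the membrane arm, was the gene whose probes disagreed. Probe O10220 was 7.27 to 7.93 in HF_RFIneg (median 7.6), 7.17 to 7.78 in HF_RFIpl (median 7.35), 7.32 to 7.86 in LF_RFIneg (median 7.65) and 6.97 to 7.98 in LF_RFIpl (median 7.37). Its difference was -0.2 (limma, SE 0.063 and adjusted p = 0.0199), with 19 of the 24 high RFI pigs below the low RFI mean. It was below 0 on 5 of 6 slides, from -0.62 to 0.11. The call of O10220 was lost with quantile normalization and with normexp (limma adjusted p up to 0.251). Probe A_72_P574759 was 6.72 to 7.15 in RFIneg (median 6.91) and 6.35 to 7.15 in RFIpl (median 6.85) and had a difference of -0.12 (limma, SE 0.051 and adjusted p = 0.0909). The overlapping probes whose ends are shown above had differences of the opposite sign, 1 of them called. Probe A_72_P473353 was 6.22 to 7.57 in HF_RFIneg (median 6.88), 6.49 to 7.46 in HF_RFIpl (median 7.25), 6.04 to 7.54 in LF_RFIneg (median 6.73) and 6.76 to 7.44 in LF_RFIpl (median 7.18). Low RFI pigs were spread far more widely than high RFI pigs, and 7 low RFI pigs, 2 on the HF and 5 on the LF diet, lay below the lowest high RFI pig. The mean was 6.74 ± 0.45 (SD, n = 24) in low and 7.13 ± 0.28 (SD, n = 24) in high RFI pigs. Its difference of 0.39 (limma, SE 0.11 and adjusted p = 0.00989) was the largest of any NDUF probe, a signal 31.1% higher in high RFI pigs, with 22 of the 24 high RFI pigs above the low RFI mean. On the 6 slides it lay between 0.11 and 0.91.

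Its partner A_72_P680773, which shares 50 of 60 bases, was 6.89 to 7.72 in RFIneg (median 7.19) and 6.85 to 7.56 in RFIpl (median 7.34), with a difference of 0.08 (limma, SE 0.059 and adjusted p = 0.367). With quantile normalization this difference was 0.16 and was called. Over the 48 pigs, deviations from the group means correlated with r = 0.91 between the 2 overlapping probes and with r = -0.28 between A_72_P473353 and O10220. Probe A_72_P574759 lay between them, with r = 0.60 with O10220 and 0.33 with A_72_P473353. When the 4 probes were averaged per gene, NDUFB9 was not called. The direction of the line difference thus differed between probes of the same gene.

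**Figure D3:**
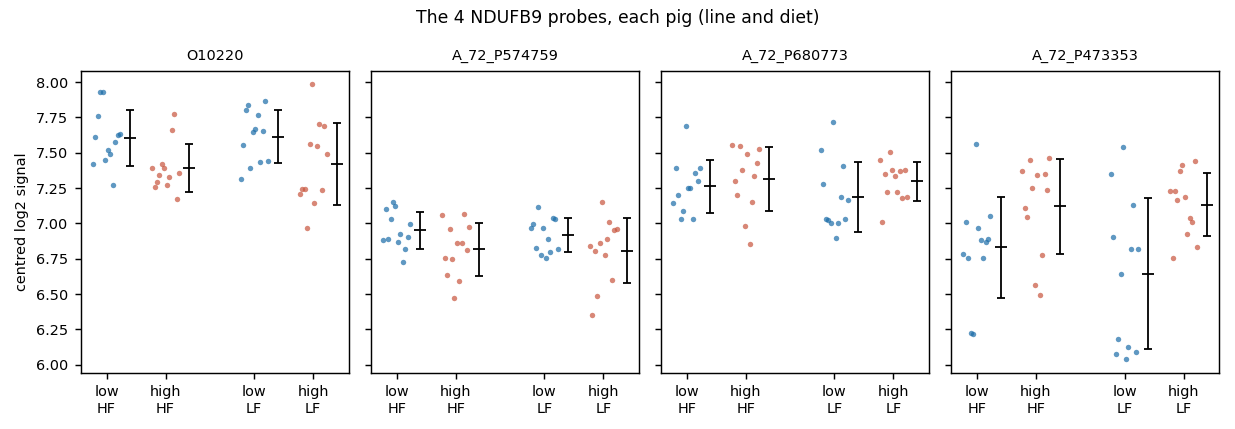
Centred log2 signal (y axis) of each pig in the 4 probes of NDUFB9, by line (low and high RFI) and diet (HF and LF), 12 pigs per group, with the group mean and SD in black. High RFI pigs are lower on average in the 2 probes on the left and higher in the 2 overlapping probes on the right, and A_72_P473353 shows the wide spread of the low RFI pigs.

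Proteins that build the complex are not part of it. NDUFAF3, an assembly factor needed early in the joining of the arms, was 4.52 to 5.11 in RFIneg (median 4.71) and 4.38 to 4.99 in RFIpl (median 4.6), and its difference was -0.14 (limma, SE 0.045 and adjusted p = 0.0286), with 19 of the 24 high RFI pigs below the low RFI mean. It was not called with quantile normalization, normexp or without the filter on dim probes (limma adjusted p = 0.0933, 0.0601 and 0.116). NDUFAF4, its partner, had a difference of -0.021 (limma, SE 0.052 and adjusted p = 0.82), 95% interval -0.13 to 0.084. The 7 NDUFA4 probes, for a protein of cytochrome c oxidase, had differences between -0.086 and -0.053 with adjusted p from 0.239 to 0.507 (limma). With quantile normalization, 6 of the 7 turned to between 0.015 and 0.05. Of the 3 probes of NDUFA4L2, a paralog known from hypoxic cells, 2 had differences of -0.081 and -0.044 and 1 of 0.053, none of them called.

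Counted per gene, with the probes of each symbol averaged before the fit, 8 of the 37 NDUF genes (21.6%) were lower in high RFI pigs. Lower were 10.9% of all 12341 genes, and no NDUF gene was higher. The 8 include NDUFB1, whose only probe is of doubtful strand, and NDUFA2, with 1 such probe of 2. Of the 37 genes, 29 (78.4%) had a difference below 0, against 59% of all genes. Of the 17 genes with more than 1 tested probe, all probes were below 0 in 11, all were above 0 in 2, and signs were mixed in 4 (NDUFB9, NDUFS1, NDUFC1 and NDUFA4L2). NDUFB9 was the only one of these 4 with a called probe.

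On the HF diet, 4 NDUF probes differed between the lines, all lower in high RFI pigs, at a background of 4.03% of all tested probes called lower. These were NDUFV3, NDUFA12, the NDUFA2 probe O10134 (of doubtful strand) and the NDUFB11 probe O14068. On the LF diet, 3 differed, again all lower, at a background of 1.34%, namely NDUFV3 and both NDUFB11 probes. All 11 probes called for the line had the same sign on both diets. The difference of NDUFV3 was -0.21 (limma, SE 0.064 and adjusted p = 0.036) on the HF and -0.23 (limma, SE 0.064 and adjusted p = 0.0351) on the LF diet. For the NDUFB11 probe O14068 it was -0.21 (limma, SE 0.052 and adjusted p = 0.0157) and -0.21 (limma, SE 0.052 and adjusted p = 0.0208). Of the 68 probes, 47 were below 0 on both diets, 6 were above 0 on both, 15 were below 0 on the LF diet only, and none on the HF diet only. The median NDUF difference was -0.038 on the HF and -0.091 on the LF diet, where that of all tested probes was -0.032 and -0.026. Of the core subunit probes, 3 of 9 were below 0 on the HF and 8 of 9 on the LF diet. In the lists described below, the medians were 0.014 on the HF and -0.076 on the LF diet for complexes II to V. Those of mitochondrial ribosomal proteins were -0.051 and -0.070. For the subunits encoded by the mitochondrial genome the order was the reverse, with -0.20 on the HF and -0.079 on the LF diet. An interaction of line and diet was called at none of the NDUF probes (limma, smallest adjusted p = 0.999), and at 0% of all tested probes, while 3 NDUF probes had an unadjusted p under 0.05, against 4.45% of all tested probes, namely NDUFA4L2 (A_72_P171081), NDUFA2 (O10134) and NDUFA9, which are named here after their values were seen.

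**Figure D4:**
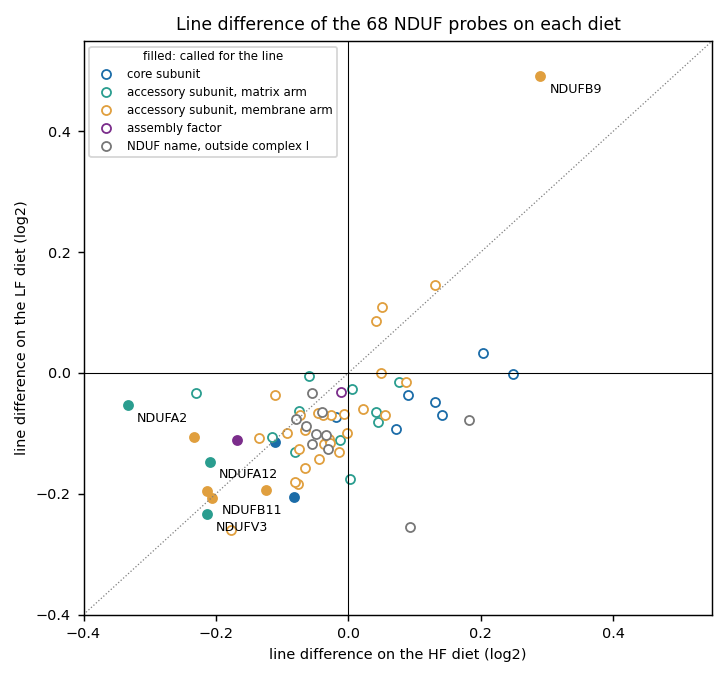
Line difference (high RFI minus low RFI, log2) on the HF diet (x axis) and on the LF diet (y axis) of the 68 NDUF probes, coloured by role, filled when called for the line, with the dotted line where both are equal. All 11 filled points lie at the lower left or the upper right, 47 points are below 0 on both diets and 15 are below 0 on the LF diet only.

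In the comparison of the diets, none of the 68 NDUF probes was called between HF and LF (limma, smallest adjusted p = 0.126), at a background of 0.42% of all tested probes, and 2 had an unadjusted p under 0.05, where 13.1% of all tested probes did. Those were probe A_72_P375448 of NDUFAB1, the mitochondrial acyl carrier protein, and the NDUFA6 probe A_72_P378448, both named after their values were seen. For HF minus LF they had 0.33 (limma, SE 0.1 and adjusted p = 0.126) and -0.14 (limma, SE 0.059 and adjusted p = 0.271). The NDUFAB1 probe was well above background on all 48 arrays. The second NDUFAB1 probe had a diet difference of 0.0093 and the second NDUFA6 probe one of 0.014. For 61 of the 68 probes the 95% interval of the diet difference lay within 0.25 of 0 on both sides. Diet differences were above 0 in 45 of the 68 probes, with a median of 0.020, against 50.8% and a median of 0.0019 over all tested probes.

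From pig to pig, NDUF probes varied together, and their median spread was below that of all tested probes. The median SD within groups was 0.169 for NDUF probes and 0.258 for all tested probes. This comparison was not matched for signal. Well above background on all 48 arrays were 65 of the 68 NDUF probes and 32719 of the 42125 tested probes. Over the 48 pigs, the deviations of 2 NDUF probes of different genes from their group means correlated with a median r of 0.32, while the median over all pairs of tested probes was 0.003. Such points share an array and a labelling reaction, whose part in r was not tested. The respiratory chain beyond complex I varied together too, as the mean r over all pairs of a list was 0.41 for complexes II to V, 0.34 for NDUF probes and 0.21 for mitochondrial ribosomal proteins. These pairs include probes of the same gene, so the 3 values do not rank the lists. Counted by gene symbol, the lists held 145 probes for 43 genes, 68 for 37 and 79 for 56. Among NDUF probes the mean r was 0.61 within genes and 0.33 between genes. Probes of the same gene had a median r of 0.863 over 66 pairs. Most of these pairs were of NDUFA4 or NDUFB8, with 7 probes each, several of which share runs of bases. Mean r with the NDUF probes of other genes was highest for NDUFV2, at 0.50, and lowest for NDUFAF3, at -0.030.

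The remaining parts of complex I and of the respiratory chain were read from lists of names. The 7 subunits encoded by the mitochondrial genome, ND1 to ND6 with ND4L, were tested with 53 probes, and all 53 differences were below 0, with a median of -0.14. Of these, 13 were called lower (24.5%) and none higher. The background for this and the lists that follow is 9.85% of all tested probes lower and 6.57% higher. The largest called difference was that of an ND6 probe, at -0.29 (limma, SE 0.085 and adjusted p = 0.015). These probes read few transcripts many times, since ND1 alone had 20. With quantile normalization the median was -0.036, with 49 of 53 below 0 and 1 called. With normexp it was -0.10, with 3 called, and without the filter on dim probes 1 was called. Of all tested probes, 8.25%, 7.09% and 3.23% were lower in these settings. Of the 16 probes of other complex I assembly factors, 5 were higher, all of TMEM70, and 2 were lower, both of TMEM126B, which had the largest difference, at -0.33 (limma, SE 0.073 and adjusted p = 0.00147). TMEM126B acts in building the membrane arm, and TMEM70 is known for the assembly of ATP synthase. Among regulators of mitochondrial genes, 3 of 17 probes were lower, 2 of TFB1M and 1 of YY1, and none was higher. TFB1M, which modifies mitochondrial ribosomal RNA, had the largest difference at -0.27 (limma, SE 0.056 and adjusted p = 0.000711), while another of its probes had 0.0067.

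Complexes II to V were tested with 145 probes for 43 gene symbols, and 27 probes (18.6%) were lower and 7 (4.83%) higher in high RFI pigs. Their median was -0.039, and 92 were below 0. Symbols were taken by how they start, and their place in the complexes was not checked. The list thus holds COX4NB (1 probe, called lower) and ATP5SL (1 probe, not called), and counts COX6B and COX6B1 apart. The largest difference was that of UQCRB, a subunit of complex III, at 0.48 (limma, SE 0.079 and adjusted p = 3.60e-05) in 1 of its 8 probes, while the other 7 were all called lower, with differences down to -0.18. Mitochondrial ribosomal proteins had 17 of 79 probes lower (21.5%) and none higher, with a median of -0.057 and the largest difference at MRPL9, -0.47 (limma, SE 0.063 and adjusted p = 1.01e-06). With quantile normalization the medians were 0.034 for complexes II to V, with 4 lower and 8 higher, and -0.043 for the ribosomal proteins, with 13 lower and 1 higher. In that setting 3474 of the 42125 tested probes were lower (8.25%) and 2815 were higher.

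**Figure D5:**
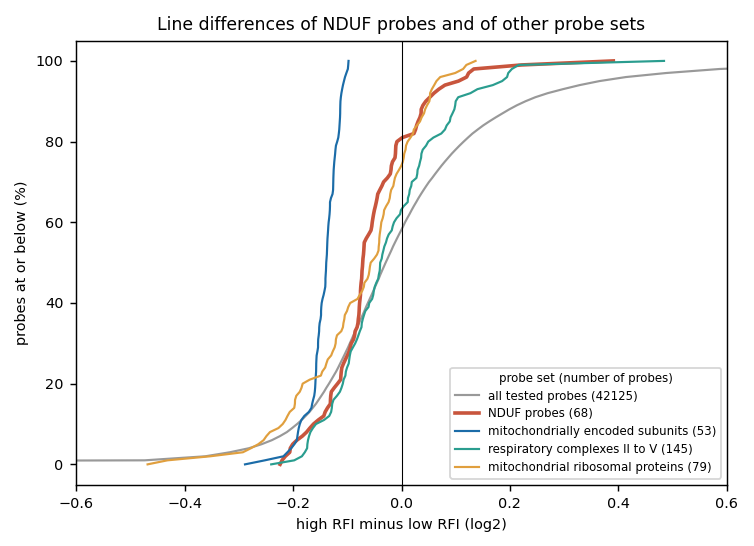
Share of probes (y axis, %) at or below a given line difference (x axis, high RFI minus low RFI, log2) for all tested probes, NDUF probes and 3 other mitochondrial lists, with the number of probes in each; the tails of all tested probes run past the axis. The NDUF curve crosses 0 at 80.9%, against 58.2% for all tested probes, and all 53 mitochondrially encoded probes lie left of 0.

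Lists of markers of fiber types and of other cells differed in how many probes were called for the line. Of 41 probes of fast fibers (MYH1, MYH2, MYH4, TNNI2, TNNT3, MYLPF and ATP2A1), 19 were lower in high RFI pigs and none was higher, and the log2 of their summed signal was 14.4 to 14.9 in low and 14.2 to 14.7 in high RFI pigs. The largest of these was ATP2A1, at -0.31 (limma, SE 0.071 and adjusted p = 0.00202). With quantile normalization 5 of the 41 were lower, and without the filter on dim probes 7. Of all tested probes, 8.25% and 3.23% were lower in these 2 settings. Of 42 probes of slow fibers, 1 was higher, of ATP2A2, at 0.23 (limma, SE 0.07 and adjusted p = 0.0205), and the summed signal was 12.1 to 13.2 in low and 12.0 to 13.2 in high RFI pigs. The differences of 29 slow fiber probes were above 0 and those of 13 below, with a median of 0.12. ATP2A2 alone had 21 of the 42 probes. The skeletal muscle list had 6 of 33 probes lower, all of CKM, of which the largest difference was -0.16 (limma, SE 0.053 and adjusted p = 0.0335), and its summed signal was 14.9 to 15.4 and 14.7 to 15.3. Without the array that stood apart 2 of the 33 were lower, with normexp 3, and with quantile normalization or without the filter on dim probes none. The shares of all tested probes lower in these settings were 9.39%, 7.09%, 8.25% and 3.23%. Of 25 adipocyte probes, 8 were higher in high RFI pigs, all of FABP4, with the largest at 0.61 (limma, SE 0.17 and adjusted p = 0.00975) in a probe well above background on 36 arrays, and the summed signal was 5.81 to 7.55 in low and 6.38 to 7.70 in high RFI pigs. Split by diet, the median line difference of this list changed sign. It was 0.49 for HF, where all 25 probes were above 0. For LF it was -0.22, with 17 probes below 0 and 8 above. Within a single diet no adipocyte probe was called, and nor was an interaction (limma, smallest adjusted p = 0.999). Without the array that stood apart 5 of the 25 were higher, and without the filter on dim probes 1. Among all tested probes, 2945 of 42125 and 1924 of 60305 were higher in these 2 settings. The leukocyte list had 2 of 6 probes higher, both of CD14, with up to 0.38 (limma, SE 0.11 and adjusted p = 0.0121), and its summed signal was 4.38 to 4.84 and 4.40 to 4.81. The fibroblast list had 2 of 8 higher, both of COL1A1, with up to 0.39 (limma, SE 0.11 and adjusted p = 0.0127), and its summed signal was 8.10 to 9.04 and 8.01 to 9.08. The other 6 probes of this list, of DCN, had differences from -0.10 to 0.016, none of them called. None of 9 endothelial probes was called, with 4.94 to 5.82 and 4.70 to 5.72, and nor was the 1 red blood cell probe, with -0.19 to 1.88 and -0.97 to 2.1. The part of these markers in the NDUF differences was not tested.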

How the data were processed

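Gene expression in longissimus muscle was measured by the authors on one-colour Agilent 60 K arrays, 1 array per pig. They deposited spot intensities made with Agilent Feature Extraction 10.7.3.1, which subtracts the local background, and a table of normalized log2 values, whose notes name R 2.10.0. The deposited log2 table holds 34472 probes, correlates with the scanner values at 0.994 or more on each array, and was used as an alternative. Apart from the build named below for RefSeq accessions, no genome build is given in the sources used here. Probes were not placed on a genome, so that no coordinates are given.

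From the intensities, controls and outliers were removed and the spots of a probe averaged. Probes well above background on 12 or more arrays were kept, 42125 in all, and each array's mean over these was subtracted from its log2 processed signals. A missing value remained in 168 probes. Contrasts of the 4 group means were tested with limma 3.58.1 (R 4.3.3) and adjusted by Benjamini-Hochberg at 0.05. The step was tested on simulated data. Intervals are 95% intervals of the moderated test.

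Symbols came from the array. RefSeq (Sscrofa11.1) accessions were found for 15 of 70 NDUF probes, all with the same symbol, and placed 7 further probes in NDUF genes. Probes were searched for shared runs of at least 20 bases, which 22 NDUF probes had with another. Members, roles and lists were chosen with earlier results of these data known. Probes named were those of core subunits, of NDUFA4 and NDUFA4L2, up to 10 called probes with the largest difference per direction, those called within a diet, genes with a called probe and probes of both signs, and the largest called difference of each other list. A few further genes are named in counts or where their values stand. Some values are not reported here. Python 3.11.15 with pandas 2.3.3, numpy 2.4.6, scipy 1.17.1 and matplotlib 3.10.9 made the summaries.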

Additional observations from a re-analysis of the deposited data

How the results depend on the processing

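Counts are NDUF probes at an adjusted p under 0.05 unless stated otherwise. Quantile normalization gave 2 higher and 5 lower in high RFI pigs, 2 on the HF and 1 on the LF diet, and a median difference of -0.015. Normexp gave 5 lower, 2 on the HF and 1 on the LF diet, and the absence of a filter on dim probes gave 5 lower, 1 on the HF and 0 on the LF diet. The last setting tested 60305 probes and called 6.42% of them in either direction. Lower were 3.23% of them, next to 7.14% of the NDUF probes. The deposited log2 table gave 1 on the LF diet, and averaging per gene symbol gave 0 higher. The variance analysis of the methods without adjustment gave 20 lower, 2 between the diets, 11 on the HF diet, 17 on the LF diet and 3 with an interaction. It then called 31.1% of all tested probes, and 19.3% were lower, next to 29.4% of NDUF probes. By diet, limma gave an unadjusted p under 0.05 to 10193 of the 42125 tested probes on HF and 6940 on LF. After adjustment the variance analysis gave 12 lower and 1 higher, with 10.1% of all tested probes lower. The other counts stayed within 1.5 times their first value. The NDUF counts were 14 lower and 1 higher when arrays were scaled on their 75th percentile, and 13 lower and 1 higher with slide as a block or scan day as a covariate. Without the array that stood apart, a setting added after seeing the data, 9 were lower and 1 higher, and without the 4 probes of doubtful strand, another such setting, 8 were lower and 1 higher.

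Signs turned for 9 named probes, none of them called in any of the settings that turned them. With quantile normalization, the NDUFA4 probes A_72_P088776, A_72_P594274, A_72_P598463, A_72_P614236, A_72_P651760 and O8793 were 0.0496, 0.0239, 0.0365, 0.0145, 0.0462 and 0.0216, and NDUFS3 was 0.0086. With normexp, NDUFS1 was 0.0087 (A_72_P089311) and -0.018 (O11552), and with probes well above background on all 48 arrays A_72_P089311 was 0.0016. The causes were not tested. No paired analysis was possible because replicates were numbered in accession order, which pairs no pigs, and each array is another pig. The fit with slide as a block is given above. Promoter motifs were not examined, as no table of promoters was given here.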
